A study of Mus musculus with 20 samples.

Results

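The Hox genes encode homeodomain transcription factors that lie in 4 clusters, HoxA to HoxD, in the mouse genome. Within a cluster the genes are numbered by paralog group, from group 1 at the 3′ end to group 13 at the 5′ end. They are switched on in about that order in the posterior epiblast during gastrulation, and the combination that a cell comes to express marks its position along the head-to-tail axis. In embryonic stem cells the clusters are kept nearly silent by Polycomb complexes, and retinoic acid, Wnt and Fgf signals together with the Cdx factors are among the inputs that open them.

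A set of 38 Hox genes, given by symbol, was read in the RNA-seq of a study of ZMYM2, a zinc finger corepressor. The set holds 10 genes of HoxA, 10 of HoxB, 9 of HoxC and 9 of HoxD, of which 11 belong to groups 1 to 4 (called anterior here), 11 to groups 5 to 8 (central) and 16 to groups 9 to 13 (posterior). The count tables list 22729 genes for embryos, 20159 for embryonic stem cells and 20142 for embryoid bodies, and they hold 35, 27 and 32 of the 38 Hox genes. Hoxb13, Hoxc12 and Hoxd12 were missing from the embryo counts. Hoxa6, Hoxa11, Hoxa13, Hoxc5 and Hoxd3 were missing from both cell tables. Hoxc6, Hoxc8, Hoxc9, Hoxc11, Hoxd10 and Hoxd12 were counted in embryoid bodies but not in stem cells, and Hoxc12 in stem cells but not in embryoid bodies, so 26 could be followed between the cell states.

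The embryos were single whole embryos of the C57BL/6 strain at embryonic day 8.5, from Zmym2+/- parents: 6 Zmym2+/+ and 6 Zmym2-/-, with 3 males and 3 females in each. The cells were mouse embryonic stem cells (mESCs) of the V6.5 line, from a C57BL/6 x 129 cross, grown in serum with LIF, and embryoid bodies (EBs, aggregates in which such cells differentiate without LIF) at day 3. There were 2 libraries of non-target control lines (NT) and 2 of Zmym2-/- lines in each state. Lines were clonal, the labels do not say which clone each library came from, and the mutant allele carries an early frameshift in the first coding exon, so its RNA can still be made. The embryo labels also carry codes of 2 series, H and J, and all 3 male Zmym2-/- embryos shared 1 J number before the embryo's own number. The labels do not say what the shared number marks.

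Libraries held 32016880 to 64057608 counts, and 1 CPM (a count scaled by library size) was 32 to 64.1 counts. Zmym2 itself ran from 25.4 to 67.1 CPM in the Zmym2-/- embryos and from 50.3 to 125 CPM in Zmym2+/+, so the genotypes overlapped, with a log2 fold change of -0.91 ± 0.25 (SE, n = 6 and 6, adjusted p = 0.226). It fell by 1.296 on the log2 scale in Zmym2-/- mESCs and fell by 1.55 in Zmym2-/- EBs (adjusted p under the 0.05 threshold in both), with no overlap. The tissue make-up of the embryos was uneven: summed CPM of 5 trophoblast markers ranged from 66.4 in Zmym2+/+ embryo 6 to 1510 in Zmym2+/+ embryo 2, and of 6 heart markers from 27.6 in Zmym2-/- embryo 6 to 1016 in Zmym2-/- embryo 1. In whole embryos and bulk cells, fewer cells of a type and less RNA per cell cannot be told apart.

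The 250 bases before the annotated start are given here for Hoxb1, Hoxb4 and Hoxb8, the HoxB genes that moved together in Zmym2-/- mESCs and have an entry among the RefSeq promoters (build GRCm38.p6, entries for 22 of the 38 genes). They lie on the plus strand at chr11:96365508-96365757, chr11:96318017-96318266 and chr11:96281655-96281904. Capitals mark TGATNNAT, a form of site on which Hox proteins bind together with cofactors, in Hoxb1 and Hoxb8, and AGGTCA, a motif of nuclear receptors such as those for retinoic acid, in Hoxb4, each read on both strands.
Hoxb1: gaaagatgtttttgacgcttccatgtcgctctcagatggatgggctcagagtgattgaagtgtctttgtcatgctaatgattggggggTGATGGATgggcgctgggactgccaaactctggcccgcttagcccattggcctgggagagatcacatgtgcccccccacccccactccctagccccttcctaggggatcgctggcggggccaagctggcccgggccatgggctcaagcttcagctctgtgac
Hoxb4: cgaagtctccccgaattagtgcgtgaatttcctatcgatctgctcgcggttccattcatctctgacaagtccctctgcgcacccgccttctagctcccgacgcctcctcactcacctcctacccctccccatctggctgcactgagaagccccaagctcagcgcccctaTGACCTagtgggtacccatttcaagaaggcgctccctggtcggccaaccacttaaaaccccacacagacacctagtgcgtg
Hoxb8: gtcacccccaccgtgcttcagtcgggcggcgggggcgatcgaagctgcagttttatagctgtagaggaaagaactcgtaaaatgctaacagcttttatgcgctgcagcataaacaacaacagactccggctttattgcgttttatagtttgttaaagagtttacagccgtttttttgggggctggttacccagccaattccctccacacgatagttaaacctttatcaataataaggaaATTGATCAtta

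TGATNNAT was found in 4 of the 24 promoter windows of the Hox genes and in 7.68% of all 32851 windows of this length, and AGGTCA in 6 of 24 and in 14%. The E-box CACGTG was found in 4 of 24, those of Hoxd1, Hoxd10, Hoxd11 and Hoxd13, against 6.02% of all windows, and in none of the 3 HoxB windows shown. The Hox windows had a median GC content of 58.6% and 12.5 CpG, against 52.4% and 6 CpG over all windows. These matches are letters in a window and no test was made of them.

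In E8.5 embryos, between-gene levels were read as RPKM (reads scaled by library size and by gene length). In Zmym2+/+ embryos Hoxb9 was the highest of the set, at 20.6 ± 11.7 RPKM (SD, n = 6), ahead of Hoxb8 at 13.6 ± 6.80, Hoxb6 at 12.3 ± 3.95, Hoxc8 at 11.4 ± 5.07 and Hoxb1 at 11.2 ± 7.84. The SDs exceed the steps between these neighbours, so their order is not fixed. HoxB gave the largest summed level, 82.7 ± 34.9 RPKM over its 10 genes, against 33.1 ± 4.79 for HoxA, 26.2 ± 13.1 for HoxC and 21.3 ± 6.62 for HoxD.

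The highest member of each further group in Zmym2+/+ embryos was Hoxb2 in group 2 (9.93 ± 3.57 RPKM), Hoxb3 in group 3 (3.07 ± 1.80), Hoxc4 in group 4 (6.03 ± 3.77), Hoxa5 in group 5 (2.69 ± 1.74) and Hoxa7 in group 7 (5.28 ± 2.65). In the 5′ part, Hoxa10 had 6.95 ± 3.05 RPKM, Hoxa11 had 7.73 ± 3.99 and Hoxa13 had 0.867 ± 0.737. Group 12 was next to absent, with Hoxc12 at 0.024 RPKM in 1 embryo and 0 in the rest, and Hoxb13 reached at most 0.045 RPKM. Hoxc13 averaged 0.016 RPKM, while Hoxa13 and Hoxd13 (0.720 ± 0.302) lay above Hoxd3 (0.445 ± 0.482) and Hoxa6 (0.368 ± 0.381), so the level did not fall steadily towards the 5′ end.

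Zmym2-/- embryos did not differ from Zmym2+/+ embryos in the level of any of the 35 Hox genes by the test used. With edgeR's quasi-likelihood test and Benjamini-Hochberg adjustment over all genes, 0 Hox genes were called higher and 0 lower, against 0.51% of all genes called higher and 0.0132% called lower. Without adjustment, 0 Hox genes were higher and 2 lower at p under 0.05, where 5.67% and 6.38% of all genes lay. DESeq2 also called 0 in each direction, with 2 lower at an unadjusted p under 0.05. The median log2 fold change was -0.00 over the 35 genes and 0.02 over all genes, and 17 of 35 were positive. All 35 genes overlapped between the genotypes in RPKM, and the share of all genes that did so was not computed. The median SE of the 35 genes was 0.51 on the log2 scale.

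The 2 genes with the smallest p were Hoxd13 and Hoxb7. Hoxd13, the 5′-most gene of HoxD, which later patterns digits and the genital bud, ran from 0.306 to 1.08 RPKM with a median of 0.669 in Zmym2+/+ embryos and from 0.222 to 0.534 with a median of 0.400 in Zmym2-/- embryos. Its log2 fold change was -0.91 ± 0.31 (adjusted p = 0.336), and the overlap came from Zmym2+/+ embryo 2, the lowest of its group. Hoxb7 ran from 4.57 to 6.00 RPKM with a median of 5.03 in Zmym2+/+ and from 1.70 to 4.73 with a median of 3.61 in Zmym2-/- embryos. Its log2 fold change was -0.60 ± 0.23 (adjusted p = 0.363), and only Zmym2-/- embryos 2 and 3 reached the low end of the Zmym2+/+ range. Hoxc10, at -0.81 ± 0.48, and Hoxc11, at -0.76 ± 0.54, were the next on the lower side, with Hoxa9 at -0.45 ± 0.53.

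On the higher side the smallest p was that of Hoxb1, a group 1 gene of the hindbrain (rhombomere 4) and of the early posterior epiblast. Hoxb1 ran from 2.63 to 24.5 RPKM with a median of 10.2 in Zmym2+/+ embryos and from 6.45 to 38.1 with a median of 18.3 in Zmym2-/- embryos, and the log2 fold change was 0.75 ± 0.45 (adjusted p = 0.527). Its highest value was in Zmym2-/- embryo 6 and its lowest in Zmym2+/+ embryo 2. Hoxa4 followed at 0.68 ± 0.52, Hoxc13 at 1.17 ± 1.03, Hoxd11 at 0.58 ± 0.90 and Hoxa5 at 0.28 ± 0.48, none of them called. Among genes that act with or on Hox genes, edgeR called 0 of 9 cofactors, 0 of 18 upstream genes, 0 of 18 Polycomb subunits and 0 of 9 Trithorax and demethylase genes. Without adjustment, 1 cofactor was higher, and 1 upstream gene and 2 Polycomb genes were lower, at p under 0.05.

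What set the embryos apart was a spread within each genotype. The summed level of the 38 genes ran from 81.3 to 219 RPKM in Zmym2+/+ embryos and from 95.7 to 228 in Zmym2-/- embryos. Among the anterior genes the sum ran from 18.6 to 80.5 RPKM, with a median of 49.8, in Zmym2+/+ and from 27.9 to 88.4, with a median of 65.8, in Zmym2-/- embryos. Zmym2-/- embryos 1 and 3 and Zmym2+/+ embryo 6, all of the J series, were each among the 3 highest embryos for 21, 20 and 20 of the 35 genes. Zmym2+/+ embryo 2 and Zmym2-/- embryo 6 were each among the 3 lowest for 27 and 24 genes. The extremes at both ends thus held embryos of both genotypes.

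Hoxb9, a group 9 gene of the trunk, shows this pattern most plainly. It had 46.7 RPKM in Zmym2-/- embryo 1, 44.4 in Zmym2-/- embryo 3 and 34.3 in Zmym2+/+ embryo 6, but 4.08 in Zmym2+/+ embryo 2 and 2.41 in Zmym2-/- embryo 6. Over the 12 embryos, log2(RPKM + 0.1) of 24 of the 34 other Hox genes correlated with Hoxb9 at r above 0.5 and that of 5 at r below 0, with a median r of 0.78. Those most like it were Hoxa7 (r = 0.95), Hoxc4 (0.93), Hoxb8 (0.92) and Hoxc8 (0.92). The embryos behind these r values share code numbers, genotype and tissue make-up, so they are a description.

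**Figure D1:**
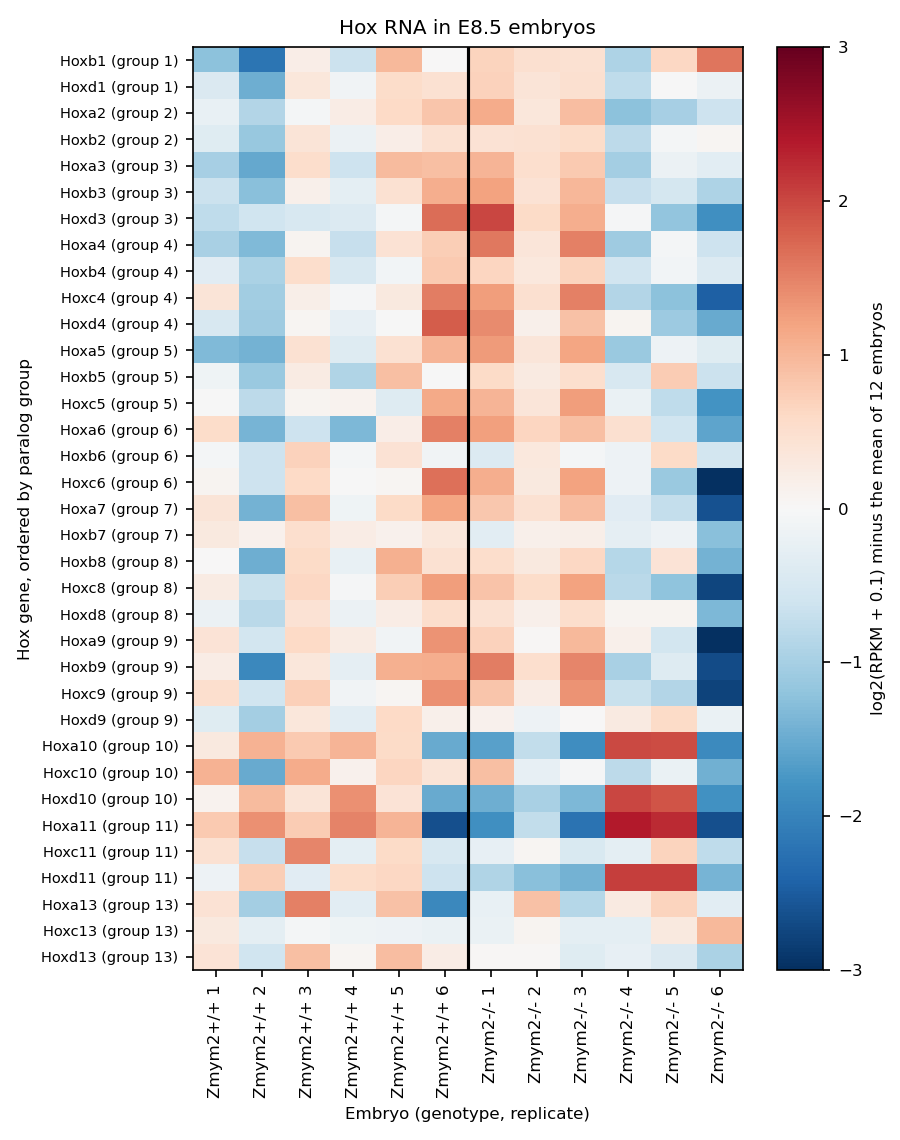
Each row is 1 of 35 Hox genes, ordered by paralog group, and each column 1 embryo, and the colour gives log2(RPKM + 0.1) minus the mean over 12 embryos. Zmym2-/- embryos 1 and 3 and Zmym2+/+ embryo 6 are high in most rows down to group 9 and low in Hoxa10, Hoxa11, Hoxd10 and Hoxd11, where Zmym2-/- embryos 4 and 5 are highest.

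Hoxa10, Hoxa11, Hoxd10 and Hoxd11 ran differently from the rest. Hoxa10 had 18.7 RPKM in Zmym2-/- embryo 4 and 18.5 in Zmym2-/- embryo 5, but 1.44, 2.76, 1.21 and 1.17 in Zmym2-/- embryos 1, 2, 3 and 6. In Zmym2+/+ embryos it ran from 1.56 to 9.78 RPKM with a median of 7.58, and the lowest was embryo 6. Hoxa11 had 22.2 and 20.1 RPKM in Zmym2-/- embryos 4 and 5 and at most 2.45 in the other Zmym2-/- embryos, and it ran from 0.588 to 11.9, with a median of 7.95, in Zmym2+/+ embryos. These genes are known to pattern limb, genital tract and the posterior trunk, and Hoxa10 and Hoxa11 are also expressed in the allantois at this age.

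Over the 12 embryos, Hoxa11 (r = 0.99), Hoxd10 (0.99) and Hoxd11 (0.92) were the genes most like Hoxa10, and the next was Hoxa13 at 0.46. With Hoxa10, 24 of the 34 other genes correlated at r below 0. The summed level of the 4 genes was 17.4 ± 8.34 RPKM in Zmym2+/+ and 18.3 ± 23.0 in Zmym2-/- embryos (SD, n = 6 each), so the Zmym2-/- group was split between 49.3 and 46.4 RPKM in 2 embryos and 2.20 to 6.06 in 4. This split coincided with the series in the labels: the 2 high embryos were the only Zmym2-/- embryos of the H series, and the 4 low ones were all of the J series. In Zmym2+/+ embryos the sum was 15.1, 24.5, 26.3 and 18.3 RPKM in the H series and 17.6 and 2.80 in the J series, so Zmym2-/- embryos lay above Zmym2+/+ embryos within H, and the genotypes overlapped within J. Their HoxC counterparts Hoxc10 and Hoxc11 reached at most 1.78 and 0.728 RPKM and correlated with Hoxa10 at r of -0.07 and 0.44.

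**Figure D2:**
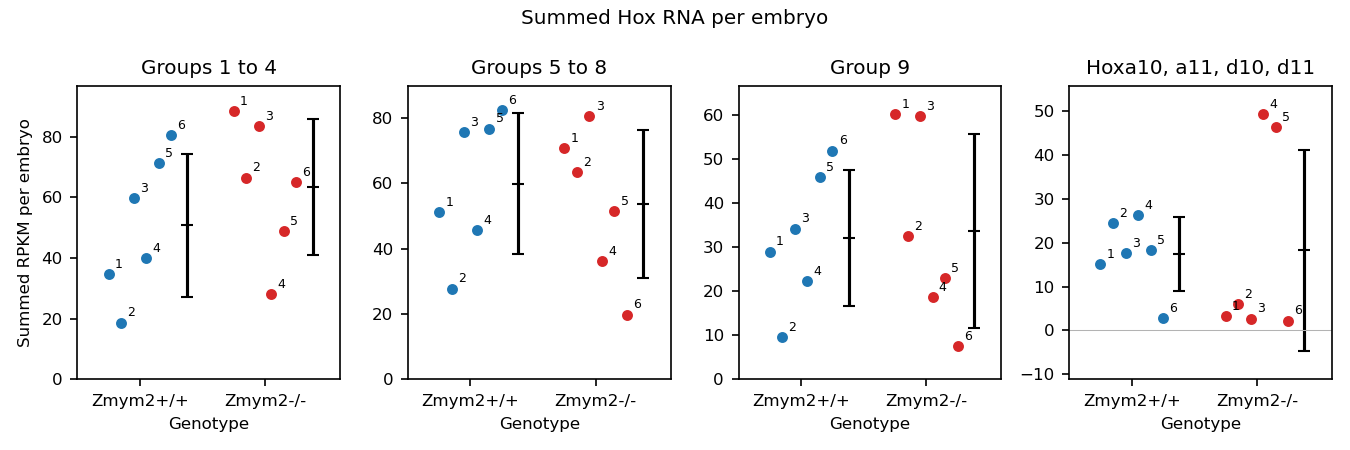
Points are summed RPKM per embryo, numbered by replicate, of groups 1 to 4, groups 5 to 8, group 9, and the 4 genes Hoxa10, Hoxa11, Hoxd10 and Hoxd11, with the mean and SD of 6 embryos in black. The genotypes overlap in each panel, and in the last panel Zmym2-/- embryos 4 and 5 stand at 49.3 and 46.4 RPKM while the other 4 Zmym2-/- embryos, all of the J series, lie at 2.20 to 6.06 RPKM.

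Zmym2-/- embryo 6 had a profile of its own. Hoxb1 stood at 38.1 RPKM, the highest of the 12 embryos, while Hoxb9 at 2.41, Hoxc8 at 1.11 and Hoxa7 at 0.537 were the lowest. Anterior genes made up 68.0% of its summed Hox level, against 20.9% to 39.2% in the other 11 embryos, and group 1 alone made up 46.7%. This embryo also had the highest summed CPM of the primitive streak markers (270, others 20.1 to 119), of the pluripotency markers (445, others 20.2 to 203) and of motile cilia genes (164, others at most 58.1), and the lowest of the heart markers. The part of this make-up in the Hox values was not tested. Without this embryo, 0 Hox genes were called in either direction and the median log2 fold change was 0.12.

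Marker sums were also read beside these profiles. Zmym2-/- embryos 1 and 3 and Zmym2+/+ embryo 6 had the 3 highest heart sums, 1016, 934 and 852 CPM. The trophoblast sum was 900, 1510, 214, 364, 190 and 66.4 CPM in Zmym2+/+ embryos 1 to 6. In Zmym2-/- embryos 1, 2, 3 and 6 it was 105, 139, 109 and 151 CPM. It was 863 CPM in Zmym2-/- embryo 4 and 235 CPM in Zmym2-/- embryo 5, both high in Hoxa10 and Hoxa11. The summed level of 6 allantois genes, a list chosen after the values were seen, was 712 and 366 CPM in these 2. It was 254, 322, 226 and 224 CPM in Zmym2-/- embryos 1, 2, 3 and 6. In Zmym2+/+ embryos 1 to 6 it was 842, 1036, 464, 365, 371 and 146 CPM. The part of these markers in the Hox values was not tested. Leaving out the 4 embryos with the highest trophoblast sums (Zmym2+/+ 1, 2 and 4 and Zmym2-/- 4) gave 0 calls, with a median of -0.32. Within the H series the median was -0.14 and within the J series -0.41, with 0 calls in each.

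Sex and genotype could be set against each other, since each genotype had 3 males and 3 females. The genotype difference ran in opposite directions by sex for many Hox genes but passed no adjusted threshold in edgeR. In the test of the interaction (the male difference minus the female difference), 0 Hox genes were called, as were 0% of all genes in each direction. At an unadjusted p under 0.05, 16 of 35 were positive and 4 negative, against 10.3% and 12% of all genes. DESeq2 called 13 positive and 2 negative, against 5.51% and 5.86% of all genes. All 11 anterior genes had a positive interaction, with a median of 2.54 on the log2 scale.

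Hoxa2, a group 2 gene of the hindbrain and pharyngeal arches, had the smallest p (interaction 2.61 ± 0.43 log2, edgeR adjusted p = 0.0617, 1.09e-06 to 0.185 over its alternatives). It had 6.46, 3.71 and 5.63 RPKM in male Zmym2-/- embryos and 2.49, 1.53 and 2.82 in male Zmym2+/+ embryos, with no overlap. In females it had 1.19, 1.41 and 1.87 RPKM in Zmym2-/- and 3.43, 4.50 and 5.27 in Zmym2+/+ embryos, again with no overlap and in the other direction. Hoxb3 (2.54 ± 0.54), Hoxc4 (3.24 ± 0.75), Hoxc8 (2.73 ± 0.67) and Hoxd3 (4.21 ± 1.13) followed on the positive side, and Hoxd11 (-3.93 ± 1.32), Hoxa10 (-3.38 ± 1.16), Hoxa11 and Hoxd10 on the negative side.

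Among males alone, edgeR called Hoxd3 higher (2.23 ± 0.43, adjusted p = 0.0448) and Hoxa10 (-2.28 ± 0.37, adjusted p = 0.0268), Hoxa11 (-2.70 ± 0.44, adjusted p = 0.0268) and Hoxd10 (-2.09 ± 0.36, adjusted p = 0.0302) lower, against 0.604% and 1.17% of all genes. Among females alone it called 0 and 0, against 0.0512% and 0.0186% of all genes. At an unadjusted p under 0.05, 12 were lower and 0 higher. The share of all genes at that threshold was not computed for females, so the 12 cannot be read against it. The male Zmym2-/- embryos share 1 code number with no Zmym2+/+ embryo, so whatever that number marks and genotype cannot be told apart in males. All 6 heart and all 5 neural plate markers also had positive interactions, with medians of 2.78 and 2.68. All 5 trophoblast, all 6 pluripotency and all 5 yolk sac and visceral endoderm markers had negative ones, with medians of -5.25, -2.38 and -1.67. Of 10 motile cilia genes, 9 were negative and 1 positive. The part of these markers in the Hox interactions was not tested. A fit with the series as a further term left 11 positive and 1 negative at an unadjusted p under 0.05. The share of all genes at that threshold was not computed for this fit. At the adjusted threshold it called 0 and 0 Hox genes, and 2 and 0 over all genes.

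In mESCs, Hox levels were low in every library. Summed RPKM over the 38 genes was 4.33 and 4.80 in the 2 control libraries and 8.36 and 13.1 in the 2 Zmym2-/- libraries, and both Zmym2-/- libraries lay above the controls. HoxB accounted for most of the step, from 2.22 and 1.76 RPKM in controls to 5.39 and 8.48 in Zmym2-/- mESCs. HoxA went from 0.672 and 0.625 to 0.814 and 1.32 RPKM, without overlap. HoxD went from 0.793 and 1.48 to 1.33 and 2.18 and HoxC from 0.647 and 0.933 to 0.827 and 1.12, and in both the genotypes overlapped. The comparison asks whether Hox RNA is already higher before differentiation in lines that lack ZMYM2. It reads bulk RNA and does not measure chromatin.

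Of 27 Hox genes tested, 6 were called higher and 1 lower in Zmym2-/- mESCs (edgeR, adjusted p under 0.05), against 10.3% of all genes called higher and 8.94% lower. All 7 belong to HoxB, and none of the 17 genes of the other clusters was called. At an unadjusted p under 0.05, 4 of those 17 were higher and 0 lower, against 16.4% and 15.3% of all genes. DESeq2 called 6 higher and 1 lower as well. The median log2 fold change was 3.29 over HoxB, 0.97 over the 27 genes and 0.01 over all genes. With 2 libraries per group, of clonal lines, the p-values measure the spread between these libraries.

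Hoxb1 changed most. It had 0.055 and 0.047 RPKM in the control mESCs (6 and 4 counts) and 1.37 and 2.33 RPKM in the Zmym2-/- mESCs (111 and 173 counts), with a log2 fold change of 5.13 ± 0.43 (adjusted p = 4.56e-06). Hoxb2, a target of the same hindbrain programme, had 0.103 and 0.078 RPKM in controls and 1.03 and 1.49 in Zmym2-/- mESCs (3.76 ± 0.35, adjusted p = 9.95e-06). Hoxb4, known for its effect on blood stem cell renewal, had 10 and 3 counts in controls and 91 and 126 in Zmym2-/- mESCs (4.39 ± 0.44, adjusted p = 2.06e-05). For each of these genes both Zmym2-/- libraries lay far above both controls.

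The central genes of the cluster followed at lower counts. Hoxb5 had 3 and 3 counts in controls and 24 and 47 in Zmym2-/- mESCs (3.84 ± 0.64, adjusted p = 0.000981). Hoxb8, whose window is printed above, had 12 and 6 counts in controls and 42 and 64 in Zmym2-/- mESCs (2.89 ± 0.46, adjusted p = 0.000727). Hoxb6 had 0 and 3 counts in controls and 10 and 24 in Zmym2-/- mESCs. Its fitted change of 3.70 ± 1.00 (adjusted p = 0.0203) rests on 3 counts, for which the ratio of CPM was 14.2 with a counting interval of 4.46 to 72.2 (exact, 95%). The Hoxb6 call was lost without control library 1 (2.59) or without Zmym2-/- library 2 (2.89).

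Hoxb13, at the 5′ end and known from prostate and tail, went the other way. It had 103 and 47 counts in the control mESCs (0.990 and 0.583 RPKM) and 15 and 13 in the Zmym2-/- mESCs (0.195 and 0.184 RPKM), with a log2 fold change of -2.05 ± 0.40 (adjusted p = 0.00321). In control mESCs it was the highest HoxB gene, and in E8.5 embryos it was nearly absent. The remaining HoxB genes did not pass the test: Hoxb3 was at 1.41 ± 0.67, Hoxb7 at 0.74 ± 0.39 and Hoxb9 at -0.49 ± 0.38 on the log2 scale.

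**Figure D3:**
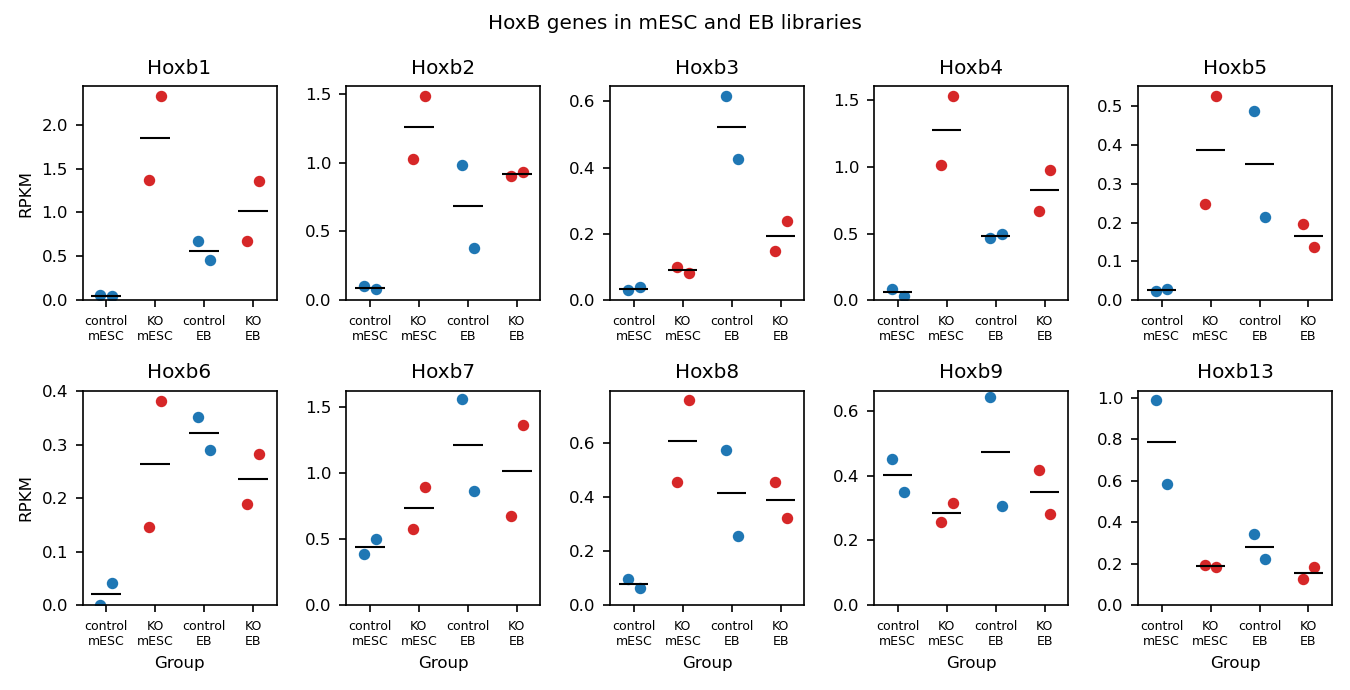
RPKM of the 10 HoxB genes in each mESC and EB library (points, 2 per group, control blue and Zmym2-/- red) with the group mean as a line; the vertical scale differs between panels. Hoxb1, Hoxb2, Hoxb4, Hoxb5, Hoxb6 and Hoxb8 are higher in both Zmym2-/- mESC libraries than in both controls, and Hoxb13 is lower.

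The HoxB genes lie at chr11:96194316-96368256 (GRCm38, 174 kb from Hoxb13 to Hoxb1, all on the plus strand), and the direction of the change followed the order along the cluster. From Hoxb1 to Hoxb8 every log2 fold change was positive, and Hoxb9 and Hoxb13 were negative. Of 5 other genes tested inside the span, Hoxb3os, an antisense RNA that overlaps Hoxb3 and Hoxb2, was called higher (2.64 ± 0.64) and Gm53, a long noncoding RNA between Hoxb13 and Hoxb9, lower (-1.20 ± 0.31). The library kit keeps strand but the counting setting is not given in the sources used here, so reads of Hoxb3os and of the genes it overlaps may not have been kept apart. Within 200 kb on either side, a distance chosen after the values were seen, 3 of 10 genes were called higher and 0 lower. Over all genes, 10.3% were called higher and 8.94% lower. The 3 were Calcoco2, an autophagy receptor gene, at 2.15 ± 0.21, Ttll6, a tubulin ligase gene next to Hoxb13, at 0.79 ± 0.26, and Igf2bp1 at 0.39 ± 0.10. Skap1, on the Hoxb1 side, was at -0.59 ± 0.60.

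**Figure D4:**
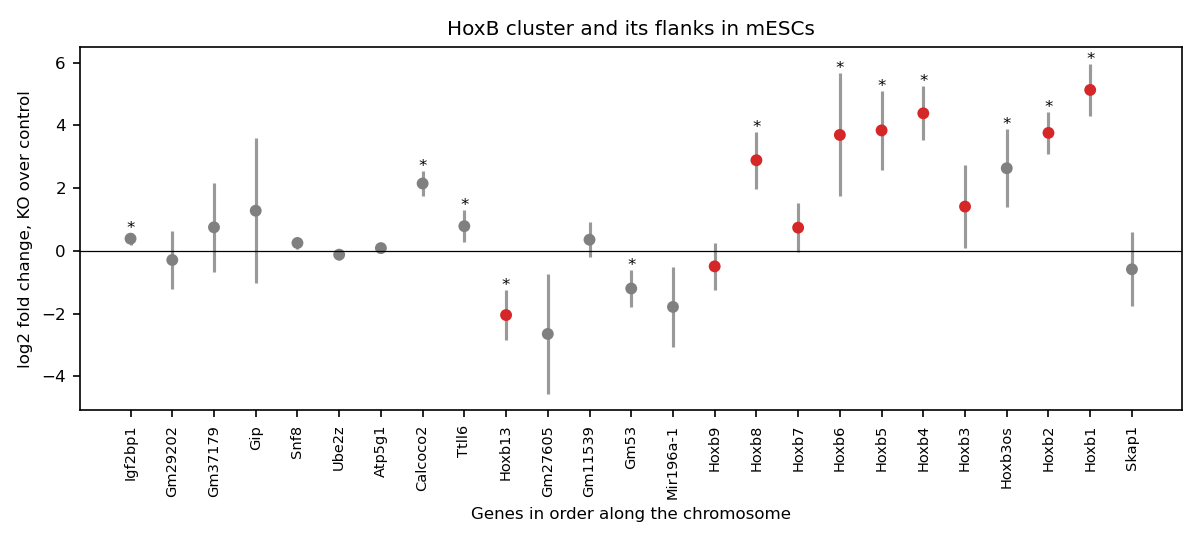
The log2 fold change of Zmym2-/- over control mESCs for each gene tested in the HoxB cluster and within 200 kb, in order along the chromosome from the Hoxb13 side to the Hoxb1 side, with 95% intervals as bars, HoxB genes in red and genes called by edgeR starred. The starred Hox genes from Hoxb8 to Hoxb1 lie between 2.89 and 5.13, and Hoxb13 lies at -2.05.

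Genes that act on or with Hox proteins were read in the same fit. Of 9 Hox cofactor genes of the TALE class, which bind DNA beside Hox proteins, 2 were called higher and 1 lower in Zmym2-/- mESCs, beside the 10.3% and 8.94% of all genes called, against which the counts of the lists that follow are also to be read. Of 18 upstream genes, 4 were higher, among them Rarg, a retinoic acid receptor, at 0.65 ± 0.10 and Lin28a, an RNA-binding regulator of developmental timing, at 0.47 ± 0.08. Cdx1, a direct activator of Hox genes, was the 1 upstream gene called lower (-1.57 ± 0.28, adjusted p = 0.00171). Of 18 Polycomb subunit genes 4 were higher and 1 lower, and of 9 Trithorax and demethylase genes 1 was higher and 1 lower, with Wdr5 at -0.47 ± 0.08. Markers of other states moved in the same libraries: 4 of 6 pluripotency genes were called lower and 0 higher, with the summed level at 3432 and 3640 CPM in controls and 2931 and 2719 in Zmym2-/- mESCs. Paraxial mesoderm markers summed to 236 and 230 CPM in controls and 71.7 and 49.1 in Zmym2-/- mESCs, with 1 of 5 called higher and 2 lower. Of 4 neural plate, 5 heart and 9 motile cilia genes, 2, 2 and 3 were called higher and 0, 0 and 1 lower. Their part in the HoxB values was not tested. Of 5 primitive streak markers, 0 were called in either direction, with 0 higher and 2 lower at an unadjusted p under 0.05.

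In day 3 EBs the genotypes were closer together. Summed RPKM over the 38 Hox genes was 14.0 and 8.05 in controls and 12.3 and 13.7 in Zmym2-/- EBs, with the Zmym2-/- values between the controls. Of 32 genes tested, 1 was called higher and 1 lower, against 4.62% and 2.77% of all genes, and the median log2 fold change was -0.02. Hoxa7 had 0.650 and 0.311 RPKM in control EBs and 0.921 and 1.54 in Zmym2-/- EBs (1.34 ± 0.34, adjusted p = 0.0338). Hoxb3 had 0.617 and 0.427 RPKM in control EBs and 0.148 and 0.240 in Zmym2-/- EBs (-1.47 ± 0.33, adjusted p = 0.0172). Both genes separated the genotypes, but the calls rest on single libraries: Hoxa7 was lost without control library 2 (0.89), and Hoxb3 without control library 1 (-1.19) or without Zmym2-/- library 1 (-1.14).

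None of the 6 genes called higher in mESCs was called in EBs. Hoxb1 was at 0.81 ± 0.35, Hoxb4 at 0.74 ± 0.28 and Hoxb5 at -1.04 ± 0.46 on the log2 scale, with adjusted p of 0.213, 0.158 and 0.224. Hoxd9 had 29 counts in Zmym2-/- EBs and 3 in controls, a CPM ratio of 7.95 with a counting interval of 2.46 to 40.8, and missed the threshold (adjusted p = 0.0585). Hoxc11 had 3 counts in Zmym2-/- EBs and 16 in controls. Among the cofactor genes 0 of 9 were called, with 0 also at an unadjusted p under 0.05 in either direction. Of the 18 upstream genes 3 were called higher and 0 lower. The 3 were Aldh1a2, the main retinoic acid synthesis enzyme of the early embryo (1.40 ± 0.28), Cdx1 (1.58 ± 0.38) and Lin28a (0.26 ± 0.05). Of 18 Polycomb subunit genes 0 were called lower and 4 higher, among them Phc1 (0.32 ± 0.06), Phc2 (0.34 ± 0.08) and Bmi1 (0.64 ± 0.16). The log2 fold change was positive for 8 Polycomb genes and negative for 10, with a median of -0.01 and a lowest value of -0.76. Before adjustment, p lay under 0.05 for 5 Polycomb genes that rose and 4 that fell. Of 9 Trithorax and demethylase genes 0 were called higher and 1 lower. These counts stand beside 4.62% of all genes called higher and 2.77% lower.

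From mESC to EB, control lines turned up much of HoxB. The 8 libraries were fitted together over the 18926 genes in both tables, so the contrasts below share libraries with each other and with those above. Of 26 Hox genes, 11 were called higher in control EBs than in control mESCs and 1 lower, against 23% and 23.6% of all genes. The 11 were Hoxb1 to Hoxb8 without exception, Hoxa2, Hoxc10 and Hoxd13, and the gene called lower was Hoxb13. Hoxb3 was at 3.88 ± 0.45, Hoxb5 at 3.66 ± 0.67 and Hoxb1 at 3.38 ± 0.55, steps that lie within the SEs. Hoxb6, at 3.96 ± 0.87, rests on 3 control mESC counts against 44 in EBs (a CPM ratio of 17.5, counting interval 5.62 to 88.2), and its value ran from 2.85 to 7.595 over its alternatives. Hoxb13 was at -1.53 ± 0.39. Hoxb1 to Hoxb6, Hoxb8 and Hoxd13 stayed called in 14 of 14 alternatives. Without control mESC library 1 the calls of Hoxa2 (2.97), Hoxb7 (1.23), Hoxc10 (2.81) and Hoxb13 (-1.10) were lost, and without control mESC library 2 those of Hoxa2 (1.86) and Hoxc10 (2.21). Without control EB library 1 Hoxa2 (1.66), Hoxb7 (0.91) and Hoxc10 (1.11) were lost, and without control EB library 2 Hoxb13 (-1.25). Hoxa2 was also lost in DESeq2 (2.36) and without either Zmym2-/- EB library (2.25 and 2.26).

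Even so, control EBs stayed low on the embryo's scale. Hoxb1 reached 0.675 and 0.456 RPKM in control EBs, Hoxb2 0.985 and 0.381, and Hoxb9 0.644 and 0.306, against group means of 11.2, 9.93 and 20.6 RPKM in Zmym2+/+ embryos. The embryo and cell values come from separately made tables and no test was made between them. The highest Hox gene in EBs was Hoxd13, with 2.26 and 1.52 RPKM in control EBs and 2.81 and 2.50 in Zmym2-/- EBs, although it is a terminal gene of its cluster. Its rise from mESC was called in controls (1.962 ± 0.29, adjusted p = 0.000121) and in Zmym2-/- lines (1.78 ± 0.28, adjusted p = 0.000203).

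In Zmym2-/- lines the same step was read for these genes. Of the same 26 genes, 2 were called higher, Hoxd13 and Hoxa7 (1.36 ± 0.42, adjusted p = 0.0196), and 1 lower, Hoxb1 (-0.94 ± 0.35, adjusted p = 0.0422), against 23.1% and 22.1% of all genes. Without adjustment, 5 Hox genes had positive and 3 negative changes at p under 0.05, against 26.2% and 25.1% of all genes. With the replicate number as a block the counts were 4 higher and 3 lower, where 4864 and 4626 of all 18926 genes were called. Hoxb1 went from 1.37 and 2.33 RPKM in Zmym2-/- mESCs to 0.676 and 1.36 in Zmym2-/- EBs, with the higher EB value just under the lower mESC value. Its call was lost without Zmym2-/- mESC library 2 (-0.53), Zmym2-/- EB library 1 (-0.51) or either control mESC library (-0.94 in both). Hoxa7 was lost without Zmym2-/- mESC library 1 (0.85) or Zmym2-/- EB library 2 (0.96).

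The difference between the genotypes in this step was tested directly. In the test of stage by genotype, 7 of 26 Hox genes were called with a smaller change in Zmym2-/- lines and 0 with a larger one, against 2.18% and 3.07% of all genes, and all 7 were HoxB genes. Without adjustment, 9 had p under 0.05 with a smaller change and 0 with a larger one, against 8.95% and 10.8% of all genes. The differences were -4.32 ± 0.66 for Hoxb1 (adjusted p = 0.00291), -3.65 ± 0.55 for Hoxb4 (0.00294), -3.35 ± 0.57 for Hoxb2 (0.00601), -4.89 ± 0.84 for Hoxb5 (0.00623), -2.88 ± 0.64 for Hoxb3 (0.0224), -2.97 ± 0.66 for Hoxb8 (0.0232) and -4.19 ± 1.09 for Hoxb6 (0.045), on the log2 scale. The first 4 stayed called without any 1 library, while Hoxb3, Hoxb8 and Hoxb6 were lost in 5, 6 and 6 of their alternatives. The count fell to 4 without control mESC library 1, control EB library 1 or Zmym2-/- EB library 1. Hoxb3 was higher in Zmym2-/- mESCs without being called (1.41 ± 0.67) and was called lower in Zmym2-/- EBs (-1.47). The other 6 were called in mESCs and not in EBs, where Hoxb5 was also lower in Zmym2-/- lines without being called.

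**Figure D5:**
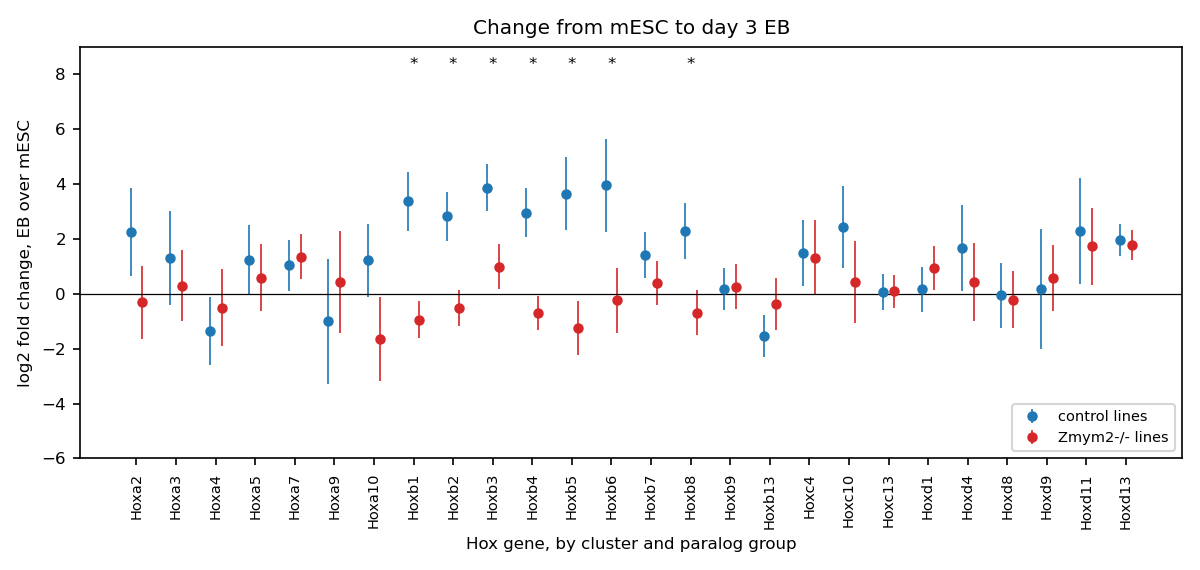
The log2 fold change from mESC to day 3 EB in control (blue) and Zmym2-/- (red) lines for 26 Hox genes, with 95% intervals as bars; stars mark the 7 genes called in the stage by genotype test. In control lines Hoxb1 to Hoxb6 lie between 2.83 and 3.96, while in Zmym2-/- lines they lie between -1.23 and 0.99.

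Genes around the pathway moved in the same test. Hoxb3os had a smaller change in Zmym2-/- lines (-2.95 ± 0.65), as did Rarg (-0.56 ± 0.13) and Jarid2, a Polycomb partner (-0.46 ± 0.11), while Cdx1 had a larger one (3.15 ± 0.46). Of 6 pluripotency genes 4 were called with a larger value of the interaction, and of 5 primitive streak markers 0, with 3 positive and 0 negative at an unadjusted p under 0.05. The summed streak level was 48.1 and 28.1 CPM in control EBs and 51.0 and 56.2 in Zmym2-/- EBs, and their part in the Hox values was not tested. Hox genes outside HoxB had none called in this test: Hoxa10 was at -2.88 ± 1.04 (adjusted p = 0.138) and Hoxa2 at -2.57 ± 1.07 (adjusted p = 0.202). Hoxd13 had a difference of -0.18, with a 95% interval of -0.97 to 0.60.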

How the data were processed

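RNA-seq was made with a stranded mRNA kit from 12 single E8.5 embryos and 8 cell libraries. Per the labels and methods, Trimmomatic 0.34 removed adapters, STAR 2.7.8a placed the reads on mm10, and HTSeq gave the raw counts per gene that the authors deposited. The deposited RPKM values were made by the authors with StringTie 1.3.5. The strand setting and annotation of the counting are not given in the sources used here. The deposited count tables also hold a normalized score, raw counts that the authors divided by 1 factor per library, and it was not used.

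Groups came from the sample titles, and sex, series and shared code numbers from titles and descriptions. Counts were tested with edgeR 4.0.16 (R 4.3.3) quasi-likelihood fits, with TMM scaling, at least 10 summed counts per gene and Benjamini-Hochberg adjustment over all genes at 0.05. DESeq2 1.42.0 was an alternative, as were other filters, leaving out libraries, series, sex and code-number terms, and blocks. RPKM served for levels between genes only. Log2 changes are given with their SE. The fits were tested on simulated counts. Embryo totals were 38142819 to 64057608 counts and cell totals 32016880 to 50937945, and intervals on counts cover counting error only.

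The Hox genes and the other lists were chosen with earlier results of these data known. The allantois list and some of the alternatives were chosen after the values were seen. These alternatives were all those for sex by genotype, DESeq2 among them, and the embryo fit without the embryos high in trophoblast markers. Full statistics go to Hox genes called, highest in their paralog group or among the 5 smallest p in either direction, and to at most 6 called genes of the other lists per comparison. The HoxB neighbours were named after their values were seen. Same-numbered embryos had correlated deviations of -0.276 to 0.296, so the numbers do not pair them. Some list values are not reported here.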

Additional observations from a re-analysis of the deposited data

Results flagged for a closer look

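Zmym2+/+ embryo 6 stood far above the other 5 embryos of its genotype, relative to the range of the group, for 5 genes of HoxC and HoxD. These were Hoxc4 at 33.6 CPM, Hoxc5 at 6.20 CPM, Hoxc6 at 20.2 CPM, Hoxd3 at 5.91 CPM and Hoxd4 at 14.6 CPM. Zmym2-/- embryo 6 stood apart from the other Zmym2-/- embryos with the highest Hoxc13, at 0.332 CPM, and the lowest Hoxd8, at 2.51 CPM. Chance alone sets apart a sample in about 1 in 20 such groups. The rule was applied to each Hox gene with enough counts in each genotype, so some flags are expected by chance. The 5 genes of Zmym2+/+ embryo 6 lie close together in HoxC and HoxD, so their flags may not be separate events.

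The change from mESC to EB differed between control and Zmym2-/- lines, by the interaction test in edgeR, for 7 HoxB genes. The log2 differences (the Zmym2-/- change minus the control change) were -4.32 for Hoxb1, -3.35 for Hoxb2, -2.88 for Hoxb3, -3.65 for Hoxb4, -4.89 for Hoxb5, -4.19 for Hoxb6 and -2.97 for Hoxb8.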

How the results depend on the processing

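Leaving out 1 library at a time gave 0 to 0 Hox genes called in either direction for embryo genotype. It gave 0 to 9 positive and 0 to 0 negative for sex by genotype (9 without Zmym2+/+ embryo 3, 6 without Zmym2+/+ embryo 4, 2 without Zmym2-/- embryo 4), while calls over all genes rose from 0 and 0 to 771 and 882, 417 and 318, and 113 and 95 in these fits. In the cells it left 1 library in a group, so effect sizes are given and not counts. For genotype, the median log2 fold change of the Hox genes ran from 0.43 to 1.23 in mESCs. In EBs it ran from -0.35 without control 2 to 0.53 without control 1. From mESC to EB the median ran from 1.01 to 1.92 in controls and from -0.05 to 0.49 in Zmym2-/- lines. For stage by genotype it ran from -1.22 to -0.08. DESeq2 called 13 positive and 2 negative for sex by genotype. Male embryos alone gave 1 higher and 3 lower. With genes missing from 1 cell table set to 0, the Hox genes tested rose from 26 to 33. The mESC to EB step then had 15 higher and 2 lower in controls, where 4817 and 5137 of all 21375 genes were called. It had 7 higher and 2 lower in Zmym2-/- lines, where 4974 and 5076 of all genes were called. A 0 set in 1 state fixes the direction of a gene's change in advance, so calls of the added genes say nothing about onset. The cause of the other shifts was not tested.

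With the replicate number as a block (replicate block), EBs had 2 Hox genes higher and 1 lower, against 1232 and 841 of all 20142 genes. The Zmym2-/- step from mESC to EB had 4 Hox genes higher and 3 lower, against 4864 and 4626 of all 18926 genes. Same-numbered cell libraries had correlated deviations of 0.000738 to 0.199, and the sources do not say that a number marks 1 line, so they share only a number. Over all genes, stage by genotype called 581 and 412 without the block and 1299 and 1026 with it, and embryo genotype called 116 and 3 in edgeR and 335 and 37 in DESeq2.

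In embryos, single uncalled genes changed sign. Hoxd11 was at -0.94 with the replicate block, -0.42 with sex as a term, -1.56 in the J series, -2.41 in males, -0.27 on log2(RPKM + 0.1), and -0.053 to 0.83 with 1 embryo left out (-0.053 without Zmym2-/- embryo 4, -0.064 without Zmym2-/- embryo 5). Hoxa5 was at -0.11 with series as a term, -0.14 in the H series, -0.10 in the J series and with the code-number block, -1.02 in females and -0.13 without the embryos high in trophoblast markers. Hoxa4 was at -0.032 in the H series, -0.90 in females and -0.020 with the code-number block. Hoxc11 was at 0.19 in the H series, Hoxc13 at -0.999 in males and -0.80 without Zmym2-/- embryos 5 and 6, and Hoxa9 at 0.25 in males.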
